A study of Mus musculus with 24 samples.

Results

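The genes described here are 9 transcripts by which microglia, the resident macrophages of the brain, are recognised: Cx3cr1, P2ry12, Tmem119, Csf1r, Aif1, Trem2, Tyrobp, Itgam and Cd68. They were chosen by name as identity and activation genes of this cell type and make up 9 of the 54532 genes in the expression table. RNA sequencing was performed on brain from 24 adult male wild-type C57BL/6J mice, 6 in each of 4 groups, and levels are given as FPKM, fragment counts scaled to gene length and to the total of the library. Vehicle mice were infused with saline. Angiotensin II mice were infused with angiotensin II, a peptide that raises blood pressure, at 0.7 mg/kg per day by osmotic minipump for 2 weeks. The vehicle + AEC and angiotensin II + AEC mice received the same infusions and an intravenous injection of human amnion epithelial cells (AEC), cells isolated from donated placentae. The comparisons ask whether angiotensin II, AEC or both changed the microglial transcripts in the brain.

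Microglia survey the tissue with fine processes and take up debris, lipids and synapses. Signals from neurons and from the extracellular space hold them in a resting state, and on injury or disease they commonly lose transcripts of their resting identity and gain those of phagocytosis and lysosomes. Cx3cr1 is the receptor for fractalkine, a ligand that neurons make. P2ry12 is a purinergic receptor that steers processes towards released nucleotides, and Tmem119 is a membrane protein used to tell microglia from macrophages that enter from blood. Csf1r is the receptor on which microglial survival depends. Trem2 is a receptor for lipids and lipoproteins that signals through the adaptor Tyrobp. Itgam encodes the integrin alpha chain CD11b, Aif1 encodes the actin-binding protein IBA1, and Cd68 encodes a glycoprotein of the lysosomal membrane.

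In the GRCm38 coordinates of the table, Cx3cr1 lies at chr9:119901616-120069879, P2ry12 at chr3:59216272-59262871 and Tmem119 at chr5:113793729-113800516, all on the minus strand. Aif1 lies at chr17:35170991-35176068 and Cd68 at chr11:69664213-69666153 on the minus strand, and Trem2 at chr17:48346401-48354147, Tyrobp at chr7:30413760-30417585 and Itgam at chr7:128062640-128118491 on the plus strand. P2ry12 lies inside Med12l, which is on the opposite strand, and the annotated span of Cx3cr1 covers 9 other genes. Whether counting used strand is not given in the sources used here, so fragments of overlapping genes cannot be told apart for P2ry12, Cx3cr1, Csf1r and Itgam. The other 5 genes overlap no other gene of the expression table.

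The promoter sequences of 4 of the genes are shown, because these genes stood at both ends of the main difference between libraries described further on: Cd68 and Aif1 had its 2 highest values, P2ry12 and Cx3cr1 its 2 lowest. Each runs 5′ to 3′ on the strand of the gene over 300 bases around the start, from RefSeq (GRCm38.p6), with 250 bases before it. Capitals mark GAGGAA or its reverse complement TTCCTC, the core letters bound by PU.1 (Spi1), the transcription factor that defines the macrophage lineage. The Cd68 window is chr11:69666121-69666420 and that of Aif1 is chr17:35176003-35176302. The P2ry12 window is chr3:59262936-59263235 and that of Cx3cr1 is chr9:120068247-120068546.
Cd68: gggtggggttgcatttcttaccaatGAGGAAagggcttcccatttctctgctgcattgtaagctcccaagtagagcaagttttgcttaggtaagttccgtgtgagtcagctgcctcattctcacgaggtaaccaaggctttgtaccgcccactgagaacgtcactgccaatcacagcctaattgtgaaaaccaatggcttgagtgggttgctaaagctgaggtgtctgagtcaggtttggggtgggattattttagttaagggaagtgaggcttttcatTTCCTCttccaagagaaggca
Aif1: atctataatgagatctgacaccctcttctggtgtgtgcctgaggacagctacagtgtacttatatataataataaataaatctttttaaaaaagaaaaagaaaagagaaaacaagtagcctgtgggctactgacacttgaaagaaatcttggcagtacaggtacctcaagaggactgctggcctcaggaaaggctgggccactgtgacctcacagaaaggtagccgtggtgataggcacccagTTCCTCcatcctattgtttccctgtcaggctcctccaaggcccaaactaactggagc
P2ry12: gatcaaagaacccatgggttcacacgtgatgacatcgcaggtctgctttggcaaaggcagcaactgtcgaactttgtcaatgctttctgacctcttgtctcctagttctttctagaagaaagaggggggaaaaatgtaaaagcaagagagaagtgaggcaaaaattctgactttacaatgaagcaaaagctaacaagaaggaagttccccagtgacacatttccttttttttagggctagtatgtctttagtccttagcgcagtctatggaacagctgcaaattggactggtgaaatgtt
Cx3cr1: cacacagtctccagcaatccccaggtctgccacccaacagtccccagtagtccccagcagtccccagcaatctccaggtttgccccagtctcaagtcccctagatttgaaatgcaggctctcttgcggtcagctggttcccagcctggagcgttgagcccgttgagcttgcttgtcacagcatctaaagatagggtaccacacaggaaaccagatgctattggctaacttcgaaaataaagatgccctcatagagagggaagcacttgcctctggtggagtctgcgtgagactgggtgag

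Of the 9 genes, 6 had a promoter in the RefSeq table, the others being Tyrobp, Tmem119 and Csf1r. GAGGAA on either strand was found in 4 of the 6 windows, those of Aif1, Cd68, Itgam and Trem2, and in 28.3% of all 32851 promoters in the table. The longer form GAGGAAGT, which contains the shorter motif, was in none of the 6 and in 3.20% of all promoters. In Cd68 the matches began 225 bases before the start and at base 30 after it, and in Aif1 the match began 7 bases before it. A match here describes letters in a window and is not evidence of binding.

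All 9 genes were measured in all 24 mice and all passed the filter for testing. Tyrobp had the highest mean level, with 17.1 ± 5.04 FPKM (SD, n = 24), followed by Csf1r with 16 ± 1.30 FPKM. The order went on with Tmem119 at 10.2 ± 2.45, Cx3cr1 at 8.46 ± 1.19, P2ry12 at 7.09 ± 0.792 and Cd68 at 6.59 ± 2.11 FPKM. Aif1 (3.15 ± 1.04 FPKM), Trem2 (2.71 ± 0.712 FPKM) and Itgam (1.29 ± 0.332 FPKM) were the lowest. Neighbours in this order were not always apart. Tyrobp exceeded Csf1r in 11 of 24 mice and Tmem119 exceeded Cx3cr1 in 14, whereas Csf1r exceeded Tmem119, Cd68 exceeded Aif1, and Trem2 exceeded Itgam in every mouse. Counts behind these levels ran from 48 fragments for Aif1 in its lowest mouse to 2328 for Csf1r in its highest. FPKM divides by the summed length of all exons of a gene, which for Aif1 (1532 bases) is longer than its longest transcript (875 bases), and for Trem2 (4946 bases) covers transcripts of 526 to 4784 bases, so the levels of these genes depend on that choice of length.

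Other genes of the lineage were lower than most of the 9. P2ry13, a close relative of P2ry12, averaged 3.57 ± 0.502 FPKM (SD, n = 24). Of the transcription factors, Sall1 stood at 3.31 ± 0.696, Spi1 at 1.73 ± 0.506 and Irf8 at 0.907 ± 0.144 FPKM. Mrc1, a gene of the macrophages at the borders of the brain, was at 0.503 ± 0.0853 FPKM, and Ly6c2, a gene of blood monocytes, was at 0.103 ± 0.0821 FPKM. These samples are whole tissue, in which fewer cells of a type and less RNA per cell cannot be told apart.

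The libraries fell into sets that cross the groups, and the genes have to be read against them. Summed over the whole table, FPKM came to between 338334.5 and 348596.7 in 6 libraries, and in the other 18 to between 277115.9 and 298300.6. The 6 high-total libraries were vehicle mice 5 and 6, angiotensin II mouse 5, vehicle + AEC mouse 6, and angiotensin II + AEC mice 5 and 6. Depth did not separate them, with 16536449 to 25308700 fragments in the high set and 16645396 to 22464979 in the low set. The mitochondrial share of fragments did, with 6.17 to 6.85% in the high set and 4.79 to 5.75% in the low set. What makes the sets differ was not tested, and they were defined from the expression table, not from the labels.

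**Figure D1:**
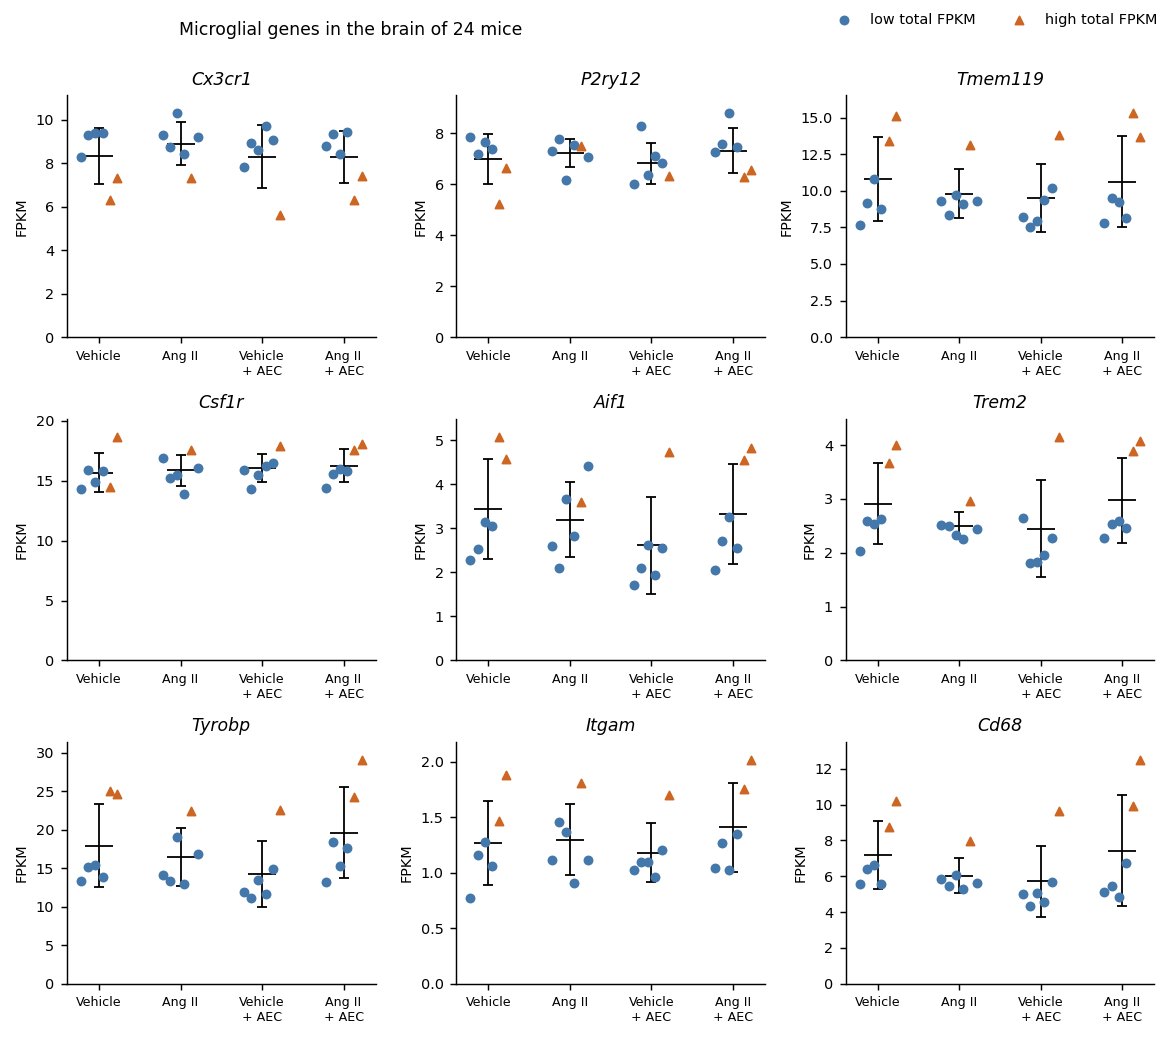
FPKM of the 9 microglial genes (vertical axis, from 0) in each mouse of the 4 groups (Ang II, angiotensin II), with the group mean and SD as bars. Triangles mark the 6 libraries with a high total FPKM. In Cd68 and Tyrobp every triangle lies above every circle, and in Cx3cr1 every triangle lies below, while the ranges of the groups overlap.

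Among the genes of resting identity, Cx3cr1 ranged from 6.30 to 9.41 FPKM (median 8.81) in vehicle mice and from 7.34 to 10.3 (median 8.99) in angiotensin II mice. In vehicle + AEC mice it ranged from 5.64 to 9.72 (median 8.76), and in angiotensin II + AEC mice from 6.30 to 9.44 (median 8.61). The groups overlapped throughout, and the lowest mouse of each was a high-total library. P2ry12 had medians of 7.28 FPKM (5.21 to 7.86) in vehicle, 7.41 (6.17 to 7.76) in angiotensin II, 6.59 (6.02 to 8.29) in vehicle + AEC and 7.37 (6.29 to 8.79) in angiotensin II + AEC mice. P2ry12 was among the steadiest of the genes between mice, and its groups overlapped.

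Tmem119 had medians of 10 FPKM (7.69 to 15.1) in vehicle, 9.29 (8.37 to 13.1) in angiotensin II, 8.78 (7.56 to 13.8) in vehicle + AEC and 9.38 (7.81 to 15.3) in angiotensin II + AEC mice. The top value of each group again came from a high-total library. Csf1r, on chromosome 18, was tight, with medians of 15.3 (14.3 to 18.7), 15.8 (13.9 to 17.6), 16.1 (14.3 to 17.9) and 15.9 FPKM (14.4 to 18.1) in the same order of groups.

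Of the receptor and adaptor pair, Tyrobp had medians of 15.3 FPKM (13.4 to 25.1) in vehicle, 15.5 (13 to 22.4) in angiotensin II, 12.7 (11.1 to 22.6) in vehicle + AEC and 18 (13.2 to 29.1) in angiotensin II + AEC mice. Trem2 had medians of 2.61 (2.04 to 4.00), 2.47 (2.25 to 2.97), 2.11 (1.81 to 4.16) and 2.57 FPKM (2.28 to 4.07). Both genes had their lowest median in vehicle + AEC mice, and all groups overlapped.

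Cd68 had medians of 6.51 FPKM (5.56 to 10.2) in vehicle, 5.73 (5.30 to 7.95) in angiotensin II, 5.05 (4.36 to 9.66) in vehicle + AEC and 6.10 (4.86 to 12.5) in angiotensin II + AEC mice. Aif1 had medians of 3.10 (2.28 to 5.09), 3.21 (2.09 to 4.43), 2.33 (1.72 to 4.73) and 2.99 FPKM (2.05 to 4.82). Itgam, the lowest of the genes, had medians of 1.22 (0.771 to 1.88), 1.25 (0.907 to 1.81), 1.1 (0.959 to 1.70) and 1.31 FPKM (1.03 to 2.02). For these genes too the vehicle + AEC median was the lowest of the 4, and no group was separate from another.

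Angiotensin II alone left the microglial genes within the spread between mice. In a limma fit of log2(FPKM + 0.1) over all 4 groups, with Benjamini-Hochberg adjustment over 27286 genes, 0 of the 9 genes passed an adjusted p of 0.05 and 0 passed an unadjusted p of 0.05, against 0% and 2.21% of all genes tested. The log2 differences between angiotensin II and vehicle mice ran from -0.22 for Cd68 to 0.10 for Cx3cr1, with a median of -0.09 over the 9 genes and 0.02 over all genes. Cd68 had the lowest p, with a log2 difference of -0.22 ± 0.220 (SE, 95% interval -0.68 to 0.23, exact permutation p = 0.2013). Csf1r was the most tightly measured, at 0.02 ± 0.0723 (95% interval -0.13 to 0.17). With the library set as a term in the fit the counts were again 0 of 9, against 3.46% of all genes at an unadjusted p of 0.05 and 0% at an adjusted p of 0.05, and the values ran from -0.09 to 0.15.

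Adding AEC to angiotensin II moved no microglial gene past either threshold, 0 of 9 against 2.54% of all genes at an unadjusted p of 0.05 and 0% at an adjusted p of 0.05. The differences between angiotensin II + AEC and angiotensin II mice ran from -0.11 for Cx3cr1 to 0.23 for Tyrobp on the log2 scale, with a median of 0.08 over the 9 genes and -0.02 over all genes. Tyrobp differed by 0.23 ± 0.210 (SE, 95% interval -0.21 to 0.66, exact permutation p = 0.3030) and Trem2 by 0.21 ± 0.190 (95% interval -0.18 to 0.60, exact permutation p = 0.2381). With the library set as a term 0 of 9 passed, against 3.90% of all genes, and Tyrobp stood at 0.11 ± 0.0968.

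Of the 3 pairwise comparisons fitted, that of vehicle + AEC with vehicle mice had the largest differences. Angiotensin II + AEC against vehicle + AEC mice was not fitted or tested on its own. For Tyrobp and Cd68 these 2 groups had the means furthest apart. Tyrobp averaged 19.6 FPKM in angiotensin II + AEC and 14.3 in vehicle + AEC mice, and Cd68 7.43 and 5.72. Cx3cr1 did not follow, with 8.29 and 8.30 FPKM. In the comparison with vehicle mice the values were as follows. Aif1 was at -0.41 ± 0.249 (SE) on the log2 scale, Cd68 at -0.34 ± 0.220, Tyrobp at -0.32 ± 0.210 and Trem2 at -0.27 ± 0.190, all within the spread of 6 against 6 mice. None passed an unadjusted p of 0.05 in limma, 0 of 9 against 2.41% of all genes and, for the adjusted p, 0%. The exact permutation p was 0.1580 for Aif1, 0.1558 for Cd68, 0.1753 for Tyrobp and 0.2619 for Trem2. Csf1r at 0.04 ± 0.0723, P2ry12 at -0.03 ± 0.0974 and Cx3cr1 at -0.01 ± 0.128 stayed near 0.

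The counts of this comparison changed without 1 library and also with the handling of the library sets. Without vehicle + AEC mouse 6, a high-total library, 4 of 9 genes had an unadjusted p under 0.05 in limma, against 4.35% of all genes, and none an adjusted p under 0.05 (lowest 0.651). The values were then -0.59 ± 0.233 (SE) for Aif1, -0.50 ± 0.206 for Cd68, -0.47 ± 0.201 for Tyrobp and -0.43 ± 0.168 for Trem2, with exact permutation p of 0.0260, 0.0130, 0.0216 and 0.0390 for 5 against 6 mice, not adjusted. Leaving it out took the only high-total library from one side and kept 2 on the vehicle side. Within the 18 low-total libraries, 5 vehicle + AEC against 4 vehicle mice, 2 of 9 genes had an unadjusted p under 0.05, against 4.18% of all genes. These were Cd68 at -0.29 (adjusted p = 1.0, exact permutation p = 0.0476) and Trem2 at -0.22 (adjusted p = 1.0, exact permutation p = 0.1429). In those libraries Cd68 ran from 4.36 to 5.67 FPKM in vehicle + AEC and from 5.56 to 6.60 in vehicle mice, so the ranges overlapped slightly. With the library set as a term 2 of 9 passed an unadjusted p of 0.05, against 3.54% of all genes, and 0% of all genes passed an adjusted p of 0.05: Cd68 at -0.21 ± 0.0941 and Tyrobp at -0.20 ± 0.0968, each with an adjusted p of 1.0.

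**Figure D2:**
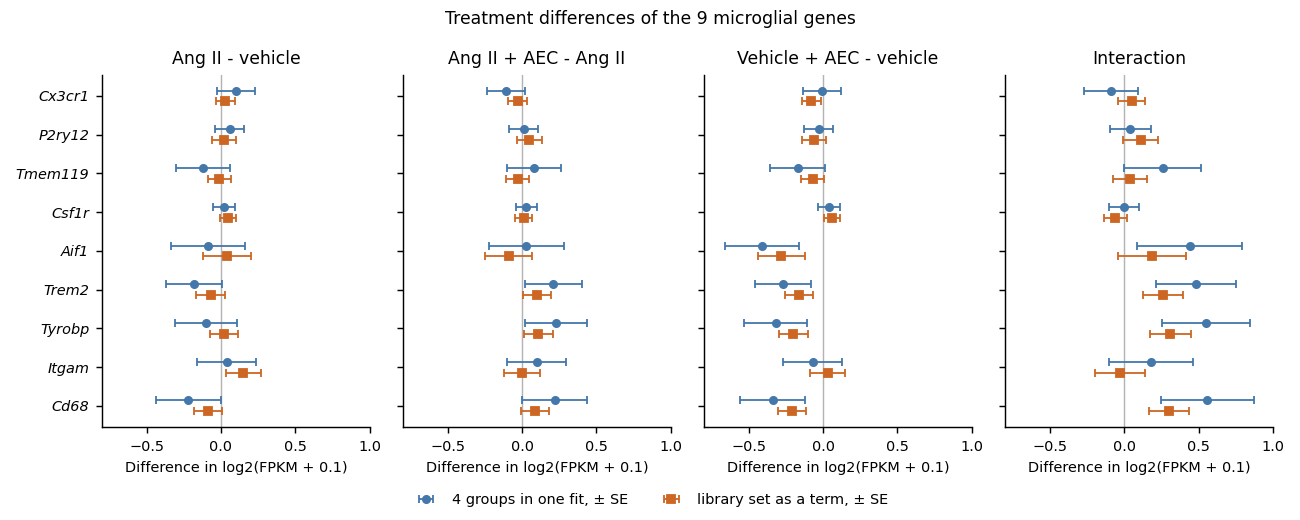
Difference in log2(FPKM + 0.1), with its SE as a bar, for each of the 9 genes in the 3 pairwise comparisons and in the interaction (Ang II, angiotensin II). Circles come from the fit of the 4 groups and squares from the fit with the library set as a term. The squares lie closer to 0 for Cd68, Tyrobp and Trem2, whose interaction values of 0.56, 0.55 and 0.48 became 0.30, 0.31 and 0.26.

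The interaction asks whether the AEC difference was another one under angiotensin II than under saline. Its largest values were 0.56 ± 0.311 (SE) for Cd68, 0.55 ± 0.297 for Tyrobp, 0.48 ± 0.269 for Trem2 and 0.44 ± 0.352 for Aif1 on the log2 scale. All 4 had an adjusted p of 0.931, and 0 of 9 genes passed, against 2.54% of all genes at an unadjusted p of 0.05 and 0% at an adjusted p of 0.05. The median over the 9 genes was 0.26, and that over all genes was -0.03. With the library set as a term Tyrobp was at 0.31 ± 0.138 and Cd68 at 0.30 ± 0.134, 2 of 9 genes at an unadjusted p of 0.05 against 3.41% of all genes, both with an adjusted p of 1.0. Without vehicle + AEC mouse 6 the count was 3 of 9, against 4.56% of all genes, with Trem2 at 0.64, Tyrobp at 0.69 and Cd68 at 0.72. In the 18 low-total libraries none of the 9 passed, and Tyrobp stood at 0.29.

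Averaged over both AEC arms, angiotensin II against saline (12 against 12 mice) gave positive values for all 9 genes, from 0.01 to 0.17 on the log2 scale with a median of 0.06, and a median of 0.00 over all genes. No gene passed, 0 of 9 against 2.39% of all genes at an unadjusted p of 0.05 and 0% at an adjusted p of 0.05, and leaving out single mice turned the sign of 3 of these values. Tyrobp was highest at 0.17 ± 0.149 (SE, 95% interval -0.13 to 0.48). With the library set as a term Tyrobp was at 0.17 ± 0.0678 (adjusted p = 1.0), the 1 of 9 genes at an unadjusted p of 0.05, against 4.43% of all genes. In the 18 low-total libraries it was at 0.21 (adjusted p = 0.999), again 1 of 9 against 3.88%. Averaged over both infusions, the AEC difference ran from -0.19 for Aif1 to 0.03 for Csf1r. There 0 of 9 genes passed, against 2.44% of all genes at an unadjusted p of 0.05 and 0% at an adjusted p of 0.05, and 0 of 9 against 4.11% with the library set as a term. In the 18 low-total libraries Cd68 stood at -0.16 (adjusted p = 1.0), the 1 of 9 under an unadjusted p of 0.05, against 4.35% of all genes.

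Neutrophils and monocytes of the blood also express Tyrobp and Itgam, so their markers are given beside these genes. All 4 of the neutrophil genes (S100a8, S100a9, Camp and Ngp) had an unadjusted limma p under 0.05 between the 12 angiotensin II and the 12 saline mice, against 2.39% of all genes, with S100a9 at 0.98 ± 0.283 (SE) on the log2 scale, and all 4 had an adjusted p of 1.0. Camp, an antimicrobial peptide gene of neutrophils, also passed the unadjusted threshold between angiotensin II + AEC and angiotensin II mice at 1.57 ± 0.458, against 2.54% of all genes, in the interaction at 1.52 ± 0.648 and for AEC averaged over both infusions at 0.81 ± 0.324. The summed level of the 4 neutrophil genes ran from 5.08 to 13.6 FPKM in vehicle, 5.95 to 22.8 in angiotensin II, 6.48 to 14.4 in vehicle + AEC and 9.21 to 45 in angiotensin II + AEC mice. Of the 3 monocyte genes only Ly6c2 passed the unadjusted threshold between infusions, at 0.74 ± 0.168. Plac8 passed it between vehicle + AEC and vehicle mice at -0.58 ± 0.257 and in the interaction at 1.1 ± 0.364, and Ccr2 between angiotensin II + AEC and angiotensin II mice at -0.29 ± 0.139. No neutrophil or monocyte gene had an adjusted p under 0.05 in the 6 comparisons fitted. The summed level of the 3 monocyte genes stayed between 0.123 and 0.667 FPKM over all mice, with no gene at 0 throughout a group. The part of these cells in the Tyrobp values was not tested.

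None of the partners of the microglial receptors passed a threshold between treatments. Cx3cl1, the ligand of Cx3cr1, averaged 166 ± 35.5 FPKM (SD, n = 24), Il34 26.9 ± 5.88 and Csf1, the second ligand of Csf1r, 5.19 ± 0.392 FPKM. Itgb2, whose product pairs with that of Itgam, averaged 1.72 ± 0.218 FPKM. Of the 11 ligands, partners and signalling genes, 0 had an unadjusted limma p under 0.05 in any of the 6 comparisons, where 2.21 to 2.54% of all genes had one. Counts were also 0 for 16 further genes of resting microglia, 8 transcription factors and 18 genes of activated or disease-associated microglia, a list that includes Cst7, Lpl, Clec7a, Apoe and Spp1. With shares that low over all genes, a count of 0 in lists of this size is near the background. The lowest p of each list belonged to Syk, a kinase downstream of Tyrobp, at -0.22 ± 0.118 between vehicle + AEC and vehicle mice, to P2ry13 at -0.11 ± 0.0808 for AEC averaged over both infusions, to Spi1 at 0.42 ± 0.309 in the interaction, and to the integrin gene Itgax at 0.31 ± 0.165 between angiotensin II + AEC and angiotensin II mice. Between vehicle + AEC and vehicle mice the median differences of these lists lay between -0.06 and 0.06 on the log2 scale. The median of the 9 genes was -0.17 in the same fit and -0.08 with the library set as a term. The lists were not summarised with that term.

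Of the 14 inflammatory mediators, 1 passed the unadjusted threshold between vehicle + AEC and vehicle mice, the pattern receptor Tlr2, at -0.57 ± 0.215 (SE, adjusted p = 0.995), against 2.41% of all genes. Tlr2 averaged 0.516 ± 0.130 FPKM (SD, n = 6) in vehicle, 0.323 ± 0.111 in vehicle + AEC, 0.432 ± 0.132 in angiotensin II and 0.577 ± 0.115 in angiotensin II + AEC mice. Its interaction value was 0.95 ± 0.304 (SE, adjusted p = 0.931). Il6 passed the unadjusted threshold between angiotensin II + AEC and angiotensin II mice at -0.26 ± 0.117, with means of 0.00727 and 0.0285 FPKM, and in the interaction at -0.35 ± 0.165. Averaged over both AEC arms, 3 of the 14 passed it between angiotensin II and saline mice, against 2.39% of all genes: Il1a at -0.44 ± 0.188, Tlr4 at -0.34 ± 0.155 and Nos2 at 0.35 ± 0.170, each with an adjusted p of 1.0. The macrophages at the borders of the brain had 1 of 7 genes past it between angiotensin II and vehicle mice, F13a1 at 0.42 ± 0.195, against 2.21% of all genes, and F13a1 was at 0.30 ± 0.138 between the 12 angiotensin II and the 12 saline mice. Markers of neurons, astrocytes, oligodendrocytes and T cells had none in any of the 6 comparisons, with the lowest p of the neuron, T cell and astrocyte lists belonging to Snap25 at -0.12 ± 0.101, Cd3d at -0.33 ± 0.285 (both in the interaction) and Gfap at -0.13 ± 0.129 (vehicle + AEC versus vehicle). Those of endothelium had 1 of 3, Pecam1, at 0.13 ± 0.0562 between the 12 angiotensin II and the 12 saline mice.

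For each of the 9 genes the difference between the library sets was larger than its treatment differences in the fit of all 24 mice, and it divided the genes. In the fit with groups and library set together, 7 of the 9 genes were higher in the high-total libraries and 2 were lower, all with an adjusted limma p under 0.05, against 22.3% of all genes higher and 31.0% lower. Cd68 was 0.78 ± 0.0775 (SE) higher on the log2 scale, Aif1 0.76 ± 0.132, Tyrobp 0.74 ± 0.0798, Tmem119 0.65 ± 0.0648, Trem2 0.64 ± 0.0785, Itgam 0.62 ± 0.0975 and Csf1r 0.17 ± 0.0445. Cx3cr1 was at -0.43 ± 0.0518 and P2ry12 at -0.20 ± 0.0669 (adjusted p = 0.0154). After rescaling each library by its median ratio P2ry12 was at -0.13 (adjusted p = 0.0969) and the other 8 genes kept their sign and stayed under 0.05. The median over all genes was -0.07.

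Values of the sets did not overlap for 6 of the 9 genes, against 27.5% of all genes. Cd68 ran from 7.95 to 12.5 FPKM (median 9.79) in the 6 high-total libraries and from 4.36 to 6.74 (median 5.51) in the 18 others. Tyrobp ran from 22.4 to 29.1 (median 24.5) against 11.1 to 19.1 (median 14), and Tmem119 from 13.1 to 15.3 against 7.56 to 10.8 FPKM. Cx3cr1 ran the other way, from 5.64 to 7.43 (median 6.81) in the high-total libraries against 7.85 to 10.3 (median 9.16). P2ry12, Csf1r and Aif1 overlapped, with P2ry12 at 5.21 to 7.50 against 6.02 to 8.79 FPKM. The ratio of Cd68 to P2ry12 was chosen after these values were seen. It sets the gene with the highest set difference against a gene with a negative one, so a separation of the sets was built into it. The ratio ran from 1.06 to 1.90 in the high-total and from 0.526 to 0.981 in the other libraries. Within each of the 4 groups the high-total libraries had the higher ratios. Among the 18 low-total libraries the median ratio was 0.810 in vehicle, 0.790 in angiotensin II, 0.798 in vehicle + AEC and 0.713 in angiotensin II + AEC mice.

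Genes outside the microglial list that mark a single cell type also went both ways between the sets. Of the neuronal genes Rbfox3 was 0.50 ± 0.0337 (SE) higher on the log2 scale in the high-total libraries while Syt1 was at -0.33 ± 0.0267 and Snap25 at -0.19 ± 0.0272. Of the astrocyte genes Gfap was at 0.46 ± 0.0392 and Slc1a2 at -0.68 ± 0.0402. Further microglial genes divided likewise, with Laptm5, a lysosomal membrane protein, at 0.78 ± 0.0392, Spi1 at 0.70 ± 0.104, the engulfment receptor Mertk at -1.07 ± 0.0888 and Sall1 at -0.64 ± 0.0778. Of the 16 resting microglia genes, 9 were higher and 4 lower at an adjusted limma p under 0.05. By the same threshold 12 of the 18 genes of activated or disease-associated microglia were higher and 2 lower. Of the 8 transcription factors 3 were higher and 4 lower. Over all genes 22.3% were higher and 31.0% lower. Il34 and Cx3cl1, which are made mainly by neurons, were each 0.60 higher, and Csf1 was at -0.02 ± 0.0529. The summed level of the 7 border macrophage genes ran from 5.3 to 8.09 FPKM in the high-total and from 2.99 to 5.08 in the other libraries. That sum is weighted towards Pf4 and Cbr2, which had the highest mean levels of the list. Singly these genes divided too, with 2 higher (Pf4 and Cbr2) and 2 lower (Cd163 and F13a1) at an adjusted limma p under 0.05.

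The set difference varied with the base composition and length of transcripts over all genes. This description was added after the values were seen and covers 13633 genes with a mean of at least 1 FPKM, 99.9% of those at that level, divided into 5 bins of nearly equal size. From the bin of lowest GC content to that of the highest, the median differences were -0.33, -0.34, -0.12, 0.16 and 0.37 on the log2 scale, and from the shortest transcripts to the longest they were 0.47, 0.25, -0.05, -0.25 and -0.51. P2ry12, with a GC content of 38.6%, was in the lowest GC bin, and Tmem119, with 59.1%, was in the highest. Aif1, Tyrobp and Cd68, with longest transcripts of 875, 597 and 1230 bases, were in the shortest bin. For 6 of the 9 genes, Aif1, Cd68, Itgam, Tmem119, Trem2 and Tyrobp, the value lay above the interquartile range of both the GC bin and the length bin. The share of all genes above both ranges was not computed, so this count has no background to be read against. The ranges of the shortest bin and of the highest GC bin were 0.09 to 0.66 and 0.13 to 0.56. Trem2 and Itgam, with transcripts of 4784 and 4682 bases and GC contents of 51.0% and 48.9%, fell in bins with ranges of -0.52 to 0.08 for length and -0.53 to 0.29 for GC content. Cx3cr1, with 4493 bases and 50.3% GC, was in the same bins and lay within both ranges at -0.43. Csf1r and P2ry12 lay within the range of their GC bin, Csf1r above and P2ry12 below that of their length bin. Across the 9 genes Pearson's r with the set difference was 0.53 for GC content and -0.49 for log2 length, as a description of 9 points that share the same libraries.

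**Figure D3:**
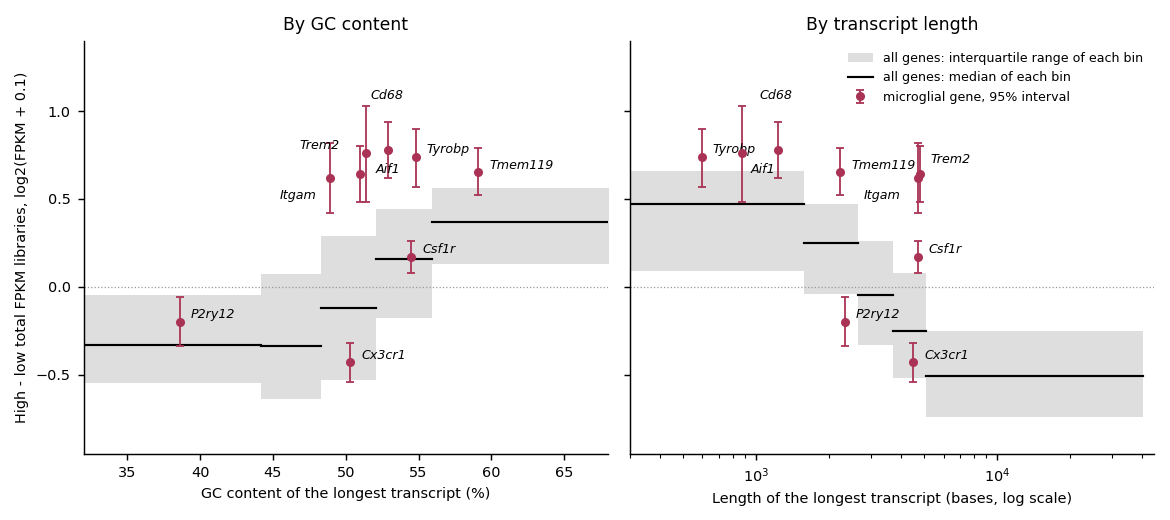
Difference between the 6 high-total and the 18 low-total libraries in log2(FPKM + 0.1) for the 9 genes, with 95% intervals, against the GC content (left) and the length on a log axis (right) of the longest transcript. Lines and grey bands give the median and the interquartile range of all genes in each of 5 bins. Cx3cr1 lies within both bands, Csf1r and P2ry12 lie within the GC bands, and the other 6 genes lie above both bands.

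Within the 18 low-total libraries, with group means removed, the genes varied together only in part. Of 36 pairs 27 had a positive Pearson's r, the median was 0.36, and 2 pairs passed an adjusted permutation p of 0.05 over the 36 by Pearson's r (13 unadjusted, 100000 permutations, two-sided) and 4 by Spearman's rho. The permutations treated the 18 values as exchangeable although group means had been removed from them. All permutation p-values given here are therefore too small, and pairs close to the adjusted threshold may not pass it. Aif1 and Tyrobp had r = 0.69 (permutation p = 0.00209, adjusted 0.0376) and Spearman's rho = 0.74 (permutation p = 0.00065, adjusted 0.0234), and r was 0.65 without the 2 mice farthest from the Aif1 median. Tyrobp and Cd68 had r = 0.68 (permutation p = 0.00188, adjusted 0.0376) and rho = 0.64 (permutation p = 0.00486, adjusted 0.0437), and r was 0.62 without the 2 mice farthest from the Tyrobp median. Csf1r and Trem2 passed by rho alone, with rho = 0.70 (permutation p = 0.00179, adjusted 0.0322) and r = 0.61 (permutation p = 0.00623, adjusted 0.0561), and r was 0.54 without the 2 mice farthest from the Csf1r median. So did Itgam and Cd68, with rho = 0.67 (permutation p = 0.0031, adjusted 0.0372) and r = 0.62 (permutation p = 0.00576, adjusted 0.0561), and r was 0.61 without the 2 mice farthest from the Itgam median. The lowest values were those of P2ry12. Its most negative value was r = -0.54 with Cd68 (permutation p = 0.0211, adjusted 0.0951, rho = -0.57, permutation p = 0.0151, adjusted 0.0874), which did not pass the adjusted threshold and was -0.42 without the 2 mice farthest from the P2ry12 median. Within the 6 high-total libraries no such value was computed, since the 4 groups hold 1 or 2 of them each.

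**Figure D4:**
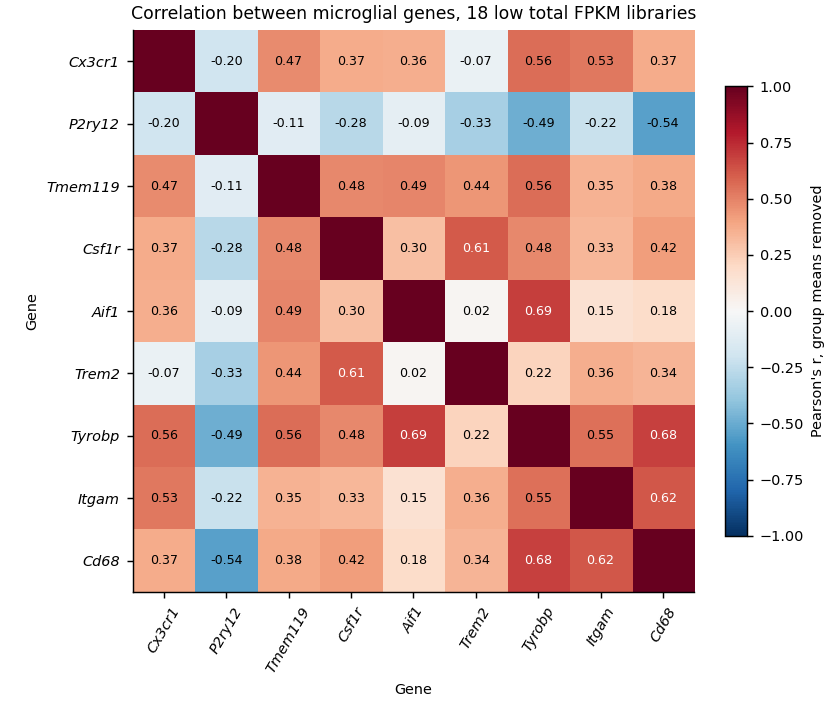
Pearson's r between each pair of the 9 genes over the 18 low-total libraries, on log2(FPKM + 0.1) with group means removed. The highest value is 0.69 for Aif1 and Tyrobp and the lowest is -0.54 for P2ry12 and Cd68.

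Over all 24 mice, with group and library set removed, the genes nearest to the mean of the 9 were not themselves microglial markers of any list. By Pearson's r over 13640 genes with a mean of at least 1 FPKM they were Mmd2 (0.84), Kcnip3 (0.84), Eef2 (0.83), Rab11fip4 (0.83) and Rasd2 (0.81), at mean levels of 32.4 to 447 FPKM. Tyrobp was nearest to Ctsb (0.88), which encodes the lysosomal protease cathepsin B, then Uqcc1 (0.85) and Nenf (0.84). Cd68 was nearest to Mcoln1 (0.78), which encodes a lysosomal ion channel, then Med15 (0.77) and Coro2b (0.75). Cx3cr1 was nearest to Ppp2r2c (0.79), Sirpa (0.79) and Rps6ka2 (0.76), P2ry12 to Myo10 (0.77), Ubqln2 (0.76) and Gcnt4 (0.75), and Tmem119 to Wnt4 (0.86), Tcap (0.85) and Rangap1 (0.80). Csf1r was nearest to Nell2 (0.86), Celf5 (0.84) and Mast3 (0.84), Aif1 to Btd (0.85), Gstm4 (0.85) and Cox7a2l (0.82), Trem2 to Sema3g (0.74), Cops7a (0.73) and Zbtb48 (0.73), and Itgam to Jakmip1 (0.78), Dis3l2 (0.77) and Rab11b (0.75). The other members ranked lower. The nearest member to Aif1 was Tyrobp, in place 103 of 13648 genes, and the nearest to Cd68 was Tyrobp, in place 120. For P2ry12 it was Csf1r, with r = 0.13, in place 4192. These values describe likeness over the 24 mice and carry no p. Whether technical variation shared between libraries entered them was not tested.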

How the data were processed

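Brain RNA of 24 mice, 6 in each of 4 groups taken from the labels, was sequenced after poly-T selection. The deposited table gives FPKM per gene and mouse, which the authors computed after mapping to the Ensembl mouse genome. The submitters' processing notes name GRCm38 (mm10) and DESeq 1.10.1. The aligner, the counting program and its strand setting are not given in the sources used here. No column of another sample was present.

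FPKM multiplied by gene length gave whole fragments for 100.0% of values (tolerance 0.1), 16536449 to 25308700 per mouse. Replicates differed by more than counting noise (chi-square per gene of at least 3.19). Counting error and the number of mice limit the precision.

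log2(FPKM + 0.1) was fitted in limma 3.58.1 (R 4.3.3), with the variance trend, over 27286 genes above 0 in at least 6 mice. One fit held the 4 groups, and p-values were adjusted by Benjamini-Hochberg over those genes. Single genes were also compared by two-sided exact permutation tests (scipy 1.17.1). Nothing in the labels says more of the origin of each sample than its mouse. Alternatives were other pseudocounts and filters, median ratio rescaling, limma voom on the recovered fragments, the replicate number as a block, the library set as a term or the low-total libraries alone, only the compared groups, and each mouse left out. The fits were tested on simulated data.

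The 9 genes and the gene lists were chosen with earlier results of these data known. The text names the 9 genes, their ligands and partners, the nearest genes by residual correlation (5 for the mean, 3 for each gene), and from each list the gene with the lowest p over the 6 comparisons. No gene had an adjusted p under 0.05 in these 6 comparisons. Other list genes past an unadjusted p of 0.05, and the markers set against the library sets, were named after their values were seen. Some genes that the rule names are not reported here. GC content and length came from GENCODE M21, in which 54409 of 54532 identifiers were found.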

Additional observations from a re-analysis of the deposited data

Results flagged for a closer look

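In 9 of 36 gene and group combinations 1 mouse stood away from the other 5 by Dixon's test at the 95% level, where chance flags about 1 in 20. All 9 were high-total libraries, and 8 were the only such library of their group. The gap is given as a share of the group's range.

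In angiotensin II mice, mouse 5 had Tmem119 at 13.1 FPKM against 8.37 to 9.69 in the others (0.720), Trem2 at 2.97 against 2.25 to 2.51 (0.632) and Cd68 at 7.95 against 5.30 to 6.05 (0.718). In vehicle + AEC mice, mouse 6 had Aif1 at 4.73 FPKM against 1.72 to 2.63 (0.699), Trem2 at 4.16 against 1.81 to 2.64 (0.645), Tyrobp at 22.6 against 11.1 to 14.9 (0.672), Itgam at 1.70 against 0.959 to 1.21 (0.663) and Cd68 at 9.66 against 4.36 to 5.67 (0.753). In vehicle mice, mouse 6 had Csf1r at 18.7 FPKM against 14.3 to 15.9 (0.637), although vehicle mouse 5, also a high-total library, had 14.5 FPKM.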

How the results depend on the processing

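None of the 9 genes reached an adjusted p of 0.05 in the 6 treatment comparisons under any alternative run. Limma voom on the recovered fragments, like limma on log2 FPKM, gave 0 of 9 at an unadjusted p of 0.05 in each of them. Counts of genes at an unadjusted p of 0.05, all 0 of 9 in the fit of the 4 groups, changed as follows, and the cause was not tested. With the replicate number as a block they were 3 (vehicle + AEC versus vehicle), 4 (interaction), 1 (angiotensin II main effect) and 1 (AEC main effect), against 3.80%, 5.19%, 3.05% and 3.03% of all genes in the same fit. Mice of different groups with the same number had correlated deviations in 28 of 36 pairs (r over 0.1, median 0.352, lowest -0.224). The median was 0.0697 for pairs with different numbers. Only 5 of 24 mice correlated best with their own number, so the numbers were not taken as pairs. All high-total libraries had the number 5 or 6, so the block and the library set cannot be fully told apart. With the library set as a term the counts were 2, 2 and 1 (vehicle + AEC versus vehicle, interaction, angiotensin II main effect). In the low-total libraries alone they were 2, 1 and 1 (vehicle + AEC versus vehicle, angiotensin II main effect, AEC main effect), and 1 of 27 exact tests passed, that of Cd68. Leaving out each mouse gave 0 to 4 genes for vehicle + AEC versus vehicle and for the exact tests (4 without vehicle + AEC mouse 6) and 0 to 3 for the interaction (3 without vehicle + AEC mouse 6, and 1 each without vehicle mouse 1, angiotensin II mouse 5 or angiotensin II + AEC mice 1 or 3). The library set difference passed for 8 of 9 genes after rescaling.

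Signs that turned belonged to values under the threshold. Of 513 gene values under the other alternatives 23 changed sign and 18 crossed the unadjusted threshold, and of 972 values with 1 mouse left out 79 changed sign and 11 crossed it. Angiotensin II versus vehicle turned with the set as a term for Aif1 (0.04) and Tyrobp (0.02), in the low-total libraries for P2ry12 (-0.07), Tmem119 (0.02), Aif1 (0.14) and Tyrobp (0.06), and after rescaling for Csf1r (-0.0031). Angiotensin II + AEC versus angiotensin II turned with the set as a term for Tmem119 (-0.03), Aif1 (-0.09) and Itgam (-0.0004), and in the low-total libraries for Tmem119 (-0.08), Csf1r (-0.0050), Aif1 (-0.20), Itgam (-0.02) and Cd68 (-0.04). Vehicle + AEC versus vehicle turned for Itgam (0.03 in both). The interaction turned with the set as a term for Cx3cr1 (0.05) and Itgam (-0.03), in the low-total libraries for Cx3cr1 (0.01), Tmem119 (-0.01) and Itgam (-0.05), and after rescaling for Csf1r (0.02).

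With 1 mouse left out, angiotensin II versus vehicle ranged from -0.02 to 0.10 for P2ry12, -0.01 to 0.07 for Csf1r, -0.19 to 0.03 for Aif1, -0.20 to 0.0048 for Tyrobp and -0.08 to 0.16 for Itgam. Angiotensin II + AEC versus angiotensin II ranged from -0.04 to 0.06 for P2ry12, -0.03 to 0.17 for Tmem119, -0.0034 to 0.07 for Csf1r, -0.09 to 0.15 for Aif1 and -0.0025 to 0.20 for Itgam. Vehicle + AEC versus vehicle ranged from -0.09 to 0.09 for Cx3cr1, -0.11 to 0.01 for P2ry12 and -0.19 to 0.04 for Itgam. The interaction ranged from -0.01 to 0.13 for P2ry12 and -0.05 to 0.03 for Csf1r. The angiotensin II main effect ranged from -0.0012 to 0.09 for Cx3cr1, -0.04 to 0.07 for Tmem119 and -0.03 to 0.14 for Cd68. The AEC main effect ranged from -0.05 to 0.01 for P2ry12, -0.10 to 0.01 for Tmem119, -0.11 to 0.02 for Trem2, -0.12 to 0.01 for Tyrobp and -0.05 to 0.07 for Itgam.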
